A study of Mus musculus with 48 samples.

Results

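The interleukin-1 family is described here through 10 genes across the hearts of mice that carry the R9C mutation of phospholamban (PLNR9C) or are wild type. Members were chosen by name from the gene column of the deposited tables: the ligands Il1a, Il1b, Il33 and Il18, the antagonist Il1rn, the receptors Il1r1, Il1r2, Il1rap and Il1rl1, and the protease Casp1. All 10 were present among the 31741 genes that every table lists. The study sequenced 48 libraries from FVB mice given the BET bromodomain inhibitor JQ1 at 50 mg/kg or vehicle, in 16 groups of 3. The groups were PLNR9C with JQ1, PLNR9C with vehicle, wild type with JQ1 and wild type with vehicle, each as whole left ventricle at 20 weeks, whole left ventricle at 8 weeks, and pooled non-myocytes and pooled cardiomyocytes at 16 weeks. The labels call PLNR9C hearts DCM (dilated cardiomyopathy) at 20 and 16 weeks and preDCM at 8 weeks. Phospholamban restrains the calcium pump of the cardiomyocyte, and its R9C form causes dilated cardiomyopathy in people; the labels used here do not state the promoter that drives the mutant gene. The series text calls the 3 libraries of a group individual biological replicates, while the fraction labels say pooled cells, with the number of hearts per pool not given.

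Interleukin-1 alpha (Il1a) and interleukin-1 beta (Il1b) signal through the receptor Il1r1, which needs the accessory chain Il1rap. The antagonist Il1rn occupies Il1r1 without signalling, and the decoy Il1r2 binds interleukin-1 without passing the signal on. Interleukin-33 (Il33), an alarmin kept in the nuclei of stromal and endothelial cells, signals through Il1rl1, also called ST2, again with Il1rap. Interleukin-18 (Il18) and Il1b are made as precursors that the inflammasome protease caspase-1 (Casp1) cleaves. In the injured heart macrophages are a known source of Il1b, and cardiac fibroblasts of Il33, with soluble ST2 measured in blood as a marker of heart failure.

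On GRCm38 the members lie on 5 chromosomes, with all values here taken over the whole gene. Il1a (chr2:129299610-129309972, minus strand), Il1b (chr2:129364580-129371120, minus) and Il1rn (chr2:24336860-24351491, plus) share chromosome 2. The receptors Il1r1 (chr1:40225080-40316177), Il1r2 (chr1:40084768-40125226) and Il1rl1 (chr1:40429605-40465414) lie on the plus strand of chromosome 1. Casp1 (chr9:5298517-5307281) and Il18 (chr9:50554857-50581837) lie on chromosome 9, Il1rap (chr16:26581705-26725147) on chromosome 16 and Il33 (chr19:29925114-29960715) on chromosome 19, all on the plus strand. Il1rn, Il33, Il1rl1 and Casp1 overlap no other annotated gene; Il1a, Il1b, Il18, Il1r1, Il1r2 and Il1rap do, and without a stated strand setting reads in the shared bases cannot be told apart.

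Promoter windows of all 10 genes were read from RefSeq on GRCm38.p6, as 250 bases before to 50 bases after each annotated start, in 15 windows. Il1b, Il1rn and Il33 are shown because their levels differed most with genotype or with JQ1 in the results that follow; capitals mark a TATA, AP-1 or strict kB motif, found on either strand. The Il1b window lies at chr2:129371090-129371389 on the minus strand and has the TATA motif TATAAA at position -31 from its start.

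Il1b: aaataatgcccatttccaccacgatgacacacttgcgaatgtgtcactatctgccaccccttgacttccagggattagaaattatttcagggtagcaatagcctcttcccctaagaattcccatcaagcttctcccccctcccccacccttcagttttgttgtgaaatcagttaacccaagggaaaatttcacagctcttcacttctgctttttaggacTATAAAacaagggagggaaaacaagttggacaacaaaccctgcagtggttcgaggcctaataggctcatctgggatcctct

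The Il1rn window at the gene's deposited start lies at chr2:24336610-24336909 on the plus strand and has the AP-1 motif TGANTCA at -141. A second Il1rn start lies 8511 bases downstream, with its window at chr2:24345121-24345420 on the plus strand. That window has a strict kB motif (GGG, a pair of any bases, TT, any base, CC) at -51 and TATAAA on the minus strand at 15; the same kB motif also falls in the window of a further start 8431 bases downstream, at position 30. The loose kB motif, GGG and CC separated by 5 bases, contains every strict match and is left in lower case where it is not one; the window of the deposited start holds it at -54 and -4.

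Il1rn, deposited start: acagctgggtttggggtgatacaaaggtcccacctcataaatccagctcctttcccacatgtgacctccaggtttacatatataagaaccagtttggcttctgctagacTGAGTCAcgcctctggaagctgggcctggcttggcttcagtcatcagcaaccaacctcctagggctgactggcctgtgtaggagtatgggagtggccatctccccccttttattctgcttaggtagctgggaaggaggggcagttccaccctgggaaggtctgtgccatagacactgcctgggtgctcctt
Il1rn, downstream start: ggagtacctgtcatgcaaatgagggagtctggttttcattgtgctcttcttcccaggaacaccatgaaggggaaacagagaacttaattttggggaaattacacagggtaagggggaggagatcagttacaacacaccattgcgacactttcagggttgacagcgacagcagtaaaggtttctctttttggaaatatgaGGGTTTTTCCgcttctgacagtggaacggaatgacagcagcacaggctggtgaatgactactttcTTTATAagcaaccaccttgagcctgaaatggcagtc

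The first Il33 window, chr19:29924863-29925162 on the plus strand, has TATAAA at -203, and a second Il33 start has it at -29.

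Il33: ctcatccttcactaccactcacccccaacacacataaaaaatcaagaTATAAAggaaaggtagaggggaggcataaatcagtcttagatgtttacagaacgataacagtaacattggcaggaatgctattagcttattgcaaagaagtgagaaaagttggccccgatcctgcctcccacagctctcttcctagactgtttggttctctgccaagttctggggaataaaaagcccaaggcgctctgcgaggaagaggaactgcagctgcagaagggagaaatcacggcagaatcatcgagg

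Of 32817 windows of the same length in RefSeq, 50.8% held the loose kB motif, 4.8% the strict one, 7.81% TGANTCA and 13.6% TATAAA. Among the members, the strict kB motif was found only in the windows of Il1rn. No motif searched was found in the Il1r2 and Il1rl1 windows, nor in that of the deposited Il1r1 start.

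Library totals were 18415351 to 26730918 reads in the 20-week ventricle, 16984138 to 27086694 in the 8-week ventricle, 10041094 to 11815003 in non-myocytes and 10249780 to 13146653 in cardiomyocytes. Within a single library 3 reads stood for 0.111 to 0.177 CPM, the read count scaled to library depth, in the ventricle and 0.228 to 0.299 CPM in the fractions. The floors used below are 3 reads over a whole group of 3 libraries, which is a lower CPM. These floors and the intervals given with them cover counting error only. Hexim1, a known BET inhibitor responder, rose with JQ1 in both genotypes and all 4 sample types, as did Brd2. Of 6 listed responders 3 rose with JQ1 in each sample type of PLNR9C. Over all genes 15.9% rose there in the 20-week ventricle, 15.5% in the 8-week ventricle, 16.7% in non-myocytes and 6.14% in cardiomyocytes. Cardiomyocyte PLNR9C JQ1 replicate 2 stood apart, with 785 CPM summed over the macrophage markers and 6567 CPM over the fibroblast markers. Wild type JQ1 non-myocytes carried more cardiomyocyte RNA, 10090 to 12987 CPM over 12 markers, than the other non-myocyte groups at 2097 to 6022 CPM. In bulk tissue, fewer cells of a type and less RNA per cell cannot be told apart.

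Levels were compared between genes only as RPKM, the read count scaled to library depth and gene length. In the 20-week ventricle the receptor Il1r1 and the ligand Il33 led the family, at 6.97 ± 0.64 and 6.89 ± 1.24 RPKM in PLNR9C vehicle hearts (mean ± SD, n = 3), with libraries that overlapped. Casp1 at 2.10 ± 0.75 and Il1rap at 1.43 ± 0.17 RPKM followed and overlapped each other. Il18, Il1rn, Il1b, Il1a, Il1rl1 and Il1r2 lay below 1 RPKM, and from Il1rn down each overlapped the next. In wild type vehicle hearts Il1r1 had 3.21 ± 0.30 RPKM and Il33 1.97 ± 0.71 RPKM, above Casp1 at 1.203 ± 0.07 and Il1rap at 0.888 ± 0.194 RPKM, with no overlap between neighbours. Below these, Il18, Il1a, Il1b, Il1r2, Il1rn and Il1rl1 overlapped their neighbours. The order in the 8-week ventricle began with the same 4 genes: Il1r1 (4.58 RPKM), Il33 (3.03 RPKM), Casp1 (1.51 RPKM) and Il1rap (1.04 RPKM) in PLNR9C vehicle hearts, and 3.35, 2.11, 0.896 and 0.825 RPKM for those genes in wild type vehicle hearts.

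In the non-myocytes Il1b stood beside Il1r1 at the top of the order. Il1b had 37.0 ± 10.7 and Il1r1 30.2 ± 2.6 RPKM in PLNR9C vehicle non-myocytes, with Il33 apart below them at 20.6 ± 2.7 RPKM. In wild type vehicle non-myocytes Il1r1 had 18.3 ± 1.5, Il1b 16.0 ± 2.6 and Il33 8.79 ± 2.47 RPKM, and here too Il1r1 and Il1b overlapped. Il1rn was last of the 10 in wild type vehicle non-myocytes at 0.184 ± 0.084 RPKM, and in the middle of the order in PLNR9C vehicle non-myocytes at 4.93 ± 3.36 RPKM, where it overlapped Casp1 and Il1rap. In cardiomyocytes Il1r1 led, at 2.55 RPKM in PLNR9C vehicle and 1.52 RPKM in wild type vehicle libraries. The Il1b level per length is uncertain, since the deposited values use a length of 3729 bases while the annotated exons cover 1907 bases and an antisense gene, Il1bos, overlaps it, while the strand setting of the counting is not stated. The Il1rn level and rank are uncertain too, with a deposited length of 2691 bases against 5535 bases of annotated exons.

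**Figure D1:**
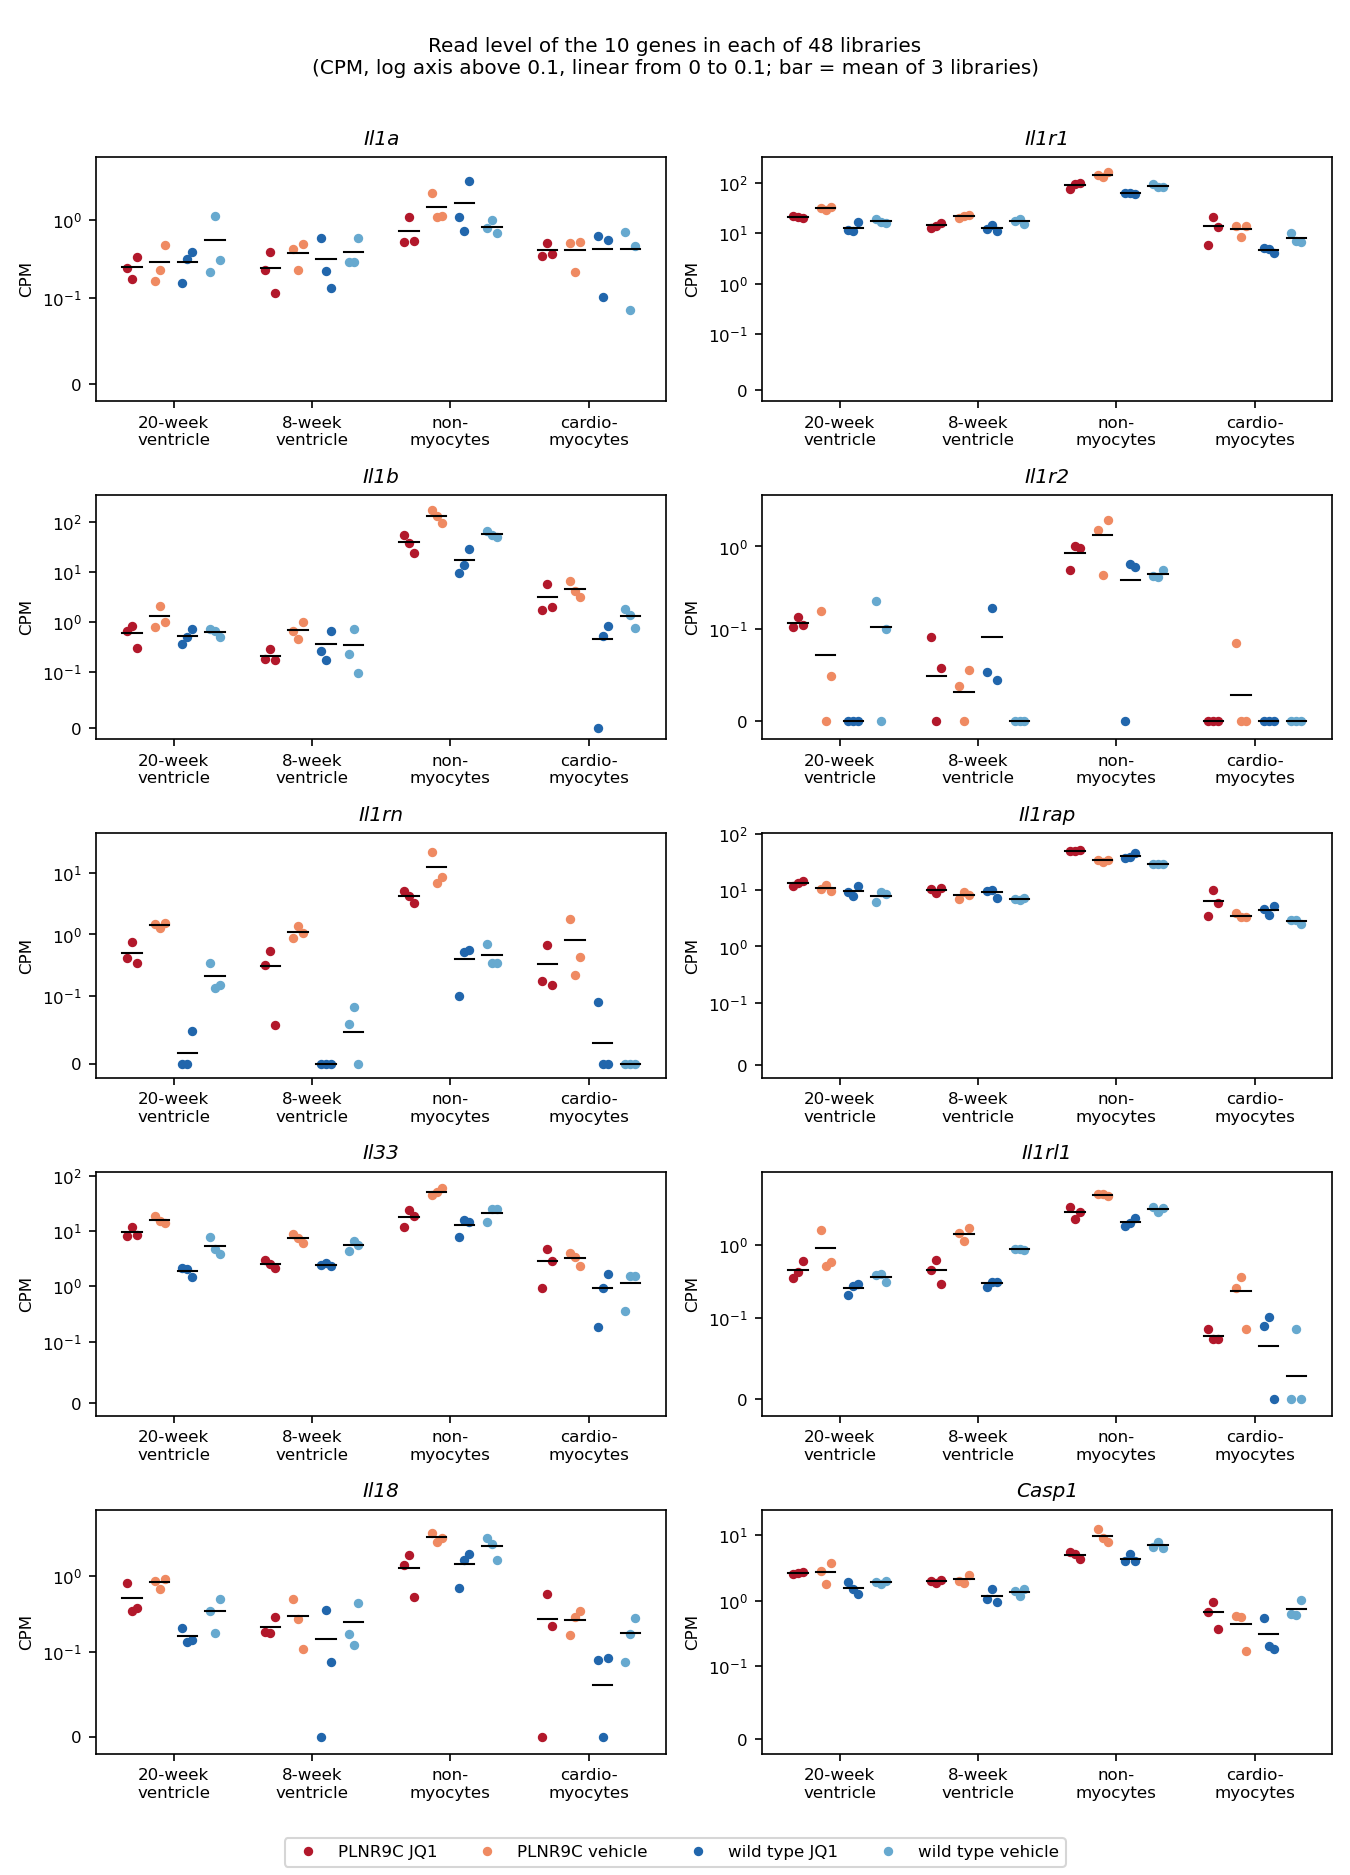
Read level of each of the 10 genes in each of 48 libraries, in CPM on an axis that is logarithmic above 0.1 and linear below; bars are means of 3 libraries and colours are the 4 genotype and treatment groups within each sample type. Il1b lies between 9.54 and 167 CPM in non-myocytes and at no more than 2.07 CPM in whole ventricle, and Il1rn is at or near 0 in wild type ventricle.

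Reads of 9 of the 10 genes were higher in non-myocytes than in cardiomyocytes, where 47.5% of all genes tested were higher, averaged over the 4 groups (edgeR's quasi-likelihood test, adjusted p under 0.05). The log2 differences were largest for Il1r2 at 5.05 ± 0.80, Il1rl1 at 4.29 ± 0.24 and Il1b at 3.93 ± 0.27 (± SE). Il1rn at 3.38 ± 0.68, Il33 at 2.81 ± 0.24, Casp1 at 2.74 ± 0.18, Il18 at 2.62 ± 0.34, Il1r1 at 2.54 ± 0.14 and Il1rap at 2.36 ± 0.11 followed, with adjusted p from 2.3e-15 to 0.00011 over the 9 genes. The members' median log2 difference was 2.78, against 0.12 over all genes. Il1a, the remaining ligand, had a log2 difference of 0.57 and did not pass. Over the 4 groups Il1r2 had 98 reads in non-myocytes and 1 in cardiomyocytes, a ratio of 106.9 with an exact 95% interval of 18.8 to 4266. The fitted Il1r2 difference rests on that 1 read, so its size and place in the order are uncertain.

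With wild type vehicle libraries alone, the same 9 genes passed, against 42.2% of all genes called higher; the members' median log2 difference was 3.15. Il1rl1 had 107 reads in non-myocytes and 1 in cardiomyocytes, a ratio of 112.9 (95% interval 19.8 to 4502). Il1rn and Il1r2 each had 16 reads in non-myocytes and 0 in cardiomyocytes, a ratio of 5.63 against a floor of 3 reads over the group. The Il1rn call there, adjusted p = 0.047, was lost without non-myocyte replicate 1 or 3 or without any 1 of the 3 cardiomyocyte libraries (adjusted p 0.052 to 0.1). It was also lost with no filter on low counts (adjusted p = 0.068). The cardiomyocyte fraction was not free of other cells: its fibroblast markers summed to 1685 to 2326 CPM in PLNR9C vehicle and 489.9 to 634 CPM in wild type vehicle libraries, and their part in the levels of these genes in that fraction was not tested.

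**Figure D2:**
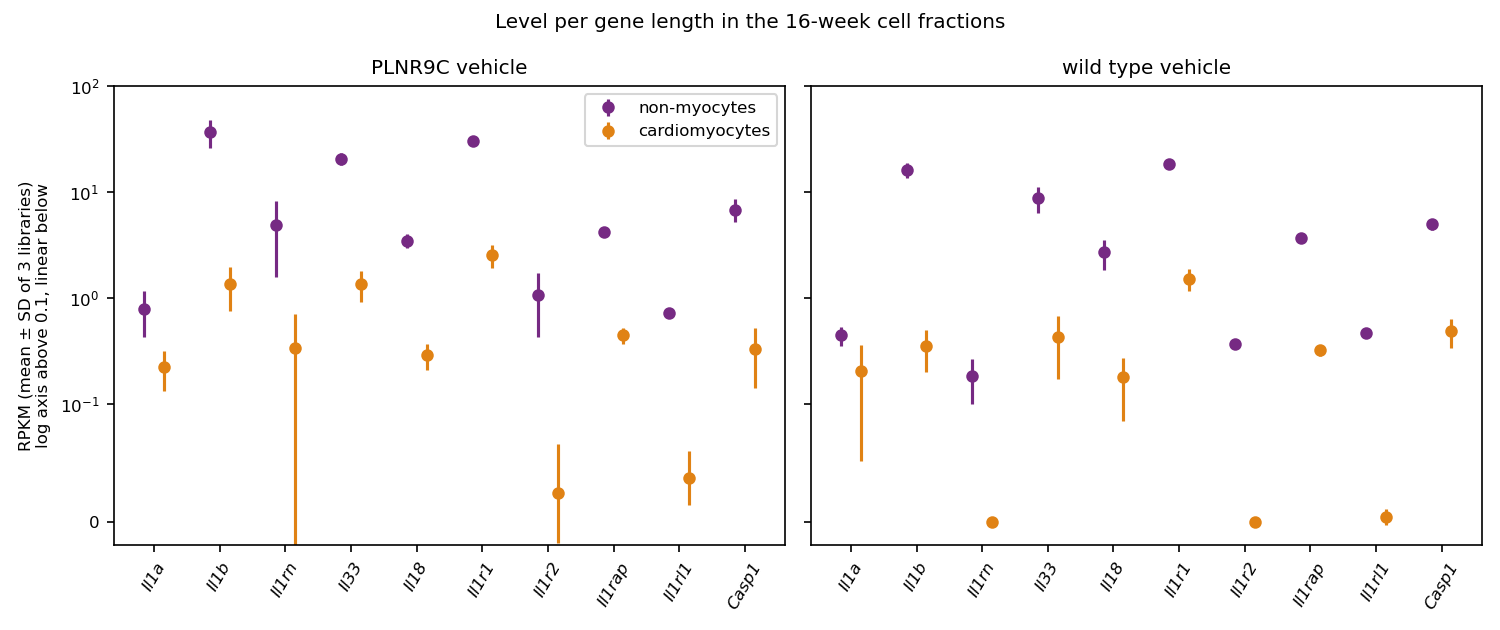
Level per gene length (RPKM, mean ± SD of 3 libraries, axis logarithmic above 0.1 and linear below) in non-myocytes and cardiomyocytes at 16 weeks, for PLNR9C vehicle on the left and wild type vehicle on the right. Each of the 10 means is higher in non-myocytes, with Il1b at 37.0 and 16.0 RPKM there.

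Several members rose in PLNR9C relative to wild type when both were given vehicle. At 20 weeks 6 of 8 tested members rose (Il1rn, Il33, Il18, Il1r1, Il1rap and Il1rl1) where 23.3% of all genes rose, and all 8 estimates were positive with a median log2 difference of 1.14, against 0.01 over all genes. Without wild type vehicle replicate 1 the count was 3. In the 8-week ventricle 1 of 8 passed as higher, Il1rn, where 7.86% of all genes rose. There 7 of the 8 estimates were positive, with a median of 0.51 against 0.01 over all genes. In non-myocytes 4 of 9 rose (Il1rn, Il33, Il1r1 and Il1rl1) where 10.3% of all genes rose, with a median of 0.75. In cardiomyocytes 1 of 4 rose, Il1b, where 14.3% of all genes rose, and that count was 0 without any 1 of the 6 libraries. Il1r2 had too few reads to be tested within any of the 4 sample types, as had Il1a in the 20-week ventricle and cardiomyocytes, Il18 in the 8-week ventricle and cardiomyocytes, and Il1rn, Il1rl1 and Casp1 in cardiomyocytes.

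JQ1 lowered several members in both genotypes. In PLNR9C hearts 3 of 8 fell in the 20-week ventricle (Il1rn, Il33 and Il1r1; 16.1% of all genes fell; median log2 difference -0.72), and 5 of 8 in the 8-week ventricle (Il1b, Il1rn, Il33, Il1r1 and Il1rl1; 17.7% of all genes fell; median -1.06). The 8-week count was 3 without PLNR9C JQ1 replicate 3. In PLNR9C non-myocytes 7 of 9 fell (Il1b, Il1rn, Il33, Il18, Il1r1, Il1rl1 and Casp1; 19.5% of all genes fell) and 1 rose, Il1rap (16.7% of all genes rose), with a median of -1.05. In PLNR9C cardiomyocytes no member of 4 passed with edgeR's test, where 10.5% of all genes changed; 1 had an unadjusted p under 0.05, DESeq2 called 0, and without PLNR9C JQ1 replicate 1 the count was 1.

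In wild type hearts 3 of 8 fell with JQ1 in the 20-week ventricle (Il1rn, Il33 and Il1r1; 14.9% of all genes fell; median -0.46) and 3 of 8 in the 8-week ventricle (Il33, Il1r1 and Il1rl1; 15.4% of all genes fell; median -0.41). The 20-week count was 1 without wild type JQ1 replicate 1, wild type JQ1 replicate 2 or wild type vehicle replicate 1. In wild type non-myocytes 4 of 9 fell (Il1b, Il1r1, Il1rl1 and Casp1; 20.0% of all genes fell) and Il1rap rose (18.0% of all genes rose), with a median of -0.59; the 5 calls were 3 without wild type JQ1 replicate 1 or wild type vehicle replicate 2. In wild type cardiomyocytes no member of 4 passed with edgeR's test, where 3.63% of all genes changed; none had an unadjusted p under 0.05 and DESeq2 called 0.

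With JQ1 in both genotypes, 6 of 8 members were higher in PLNR9C than in wild type 20-week ventricle (Il1rn, Il33, Il18, Il1r1, Il1rap and Casp1; 20.8% of all genes; median 0.79). Without wild type JQ1 replicate 2 the count was 3. Il1rn alone was higher in the 8-week ventricle (3.43% of all genes; median 0.15), and this count was 0 without PLNR9C JQ1 replicate 2. In non-myocytes Il1rn, Il1r1 and Il1rap were higher (9.24% of all genes; median 0.43), and in cardiomyocytes Il1b and Il1r1 (13.6% of all genes; median 1.59). The cardiomyocyte count was 0 without PLNR9C JQ1 replicate 2, 4 without PLNR9C JQ1 replicate 1 and 1 without wild type JQ1 replicate 3. Comparisons of genotype and of JQ1 share groups, PLNR9C vehicle among them. A rise with genotype and a fall with JQ1 in PLNR9C are therefore not independent results, and their values stand side by side.

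The effect of JQ1 was not shown to differ between genotypes for any member. The interaction term of edgeR's quasi-likelihood fit called 0 members in each of the 4 sample types, where it called 0.357% of all genes in the 20-week ventricle, 0.00645% in the 8-week ventricle, and 0% in non-myocytes and cardiomyocytes; DESeq2 also called 0 members. At an unadjusted p under 0.05 stood 1 member in the 20-week ventricle, 0 in the 8-week ventricle, 1 in non-myocytes and 0 in cardiomyocytes. These were Il33, with an interaction of 0.79 ± 0.35 on the log2 scale (adjusted p = 0.45), and Il1a in non-myocytes at -2.09 ± 0.78 (adjusted p = 0.46).

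**Figure D3:**
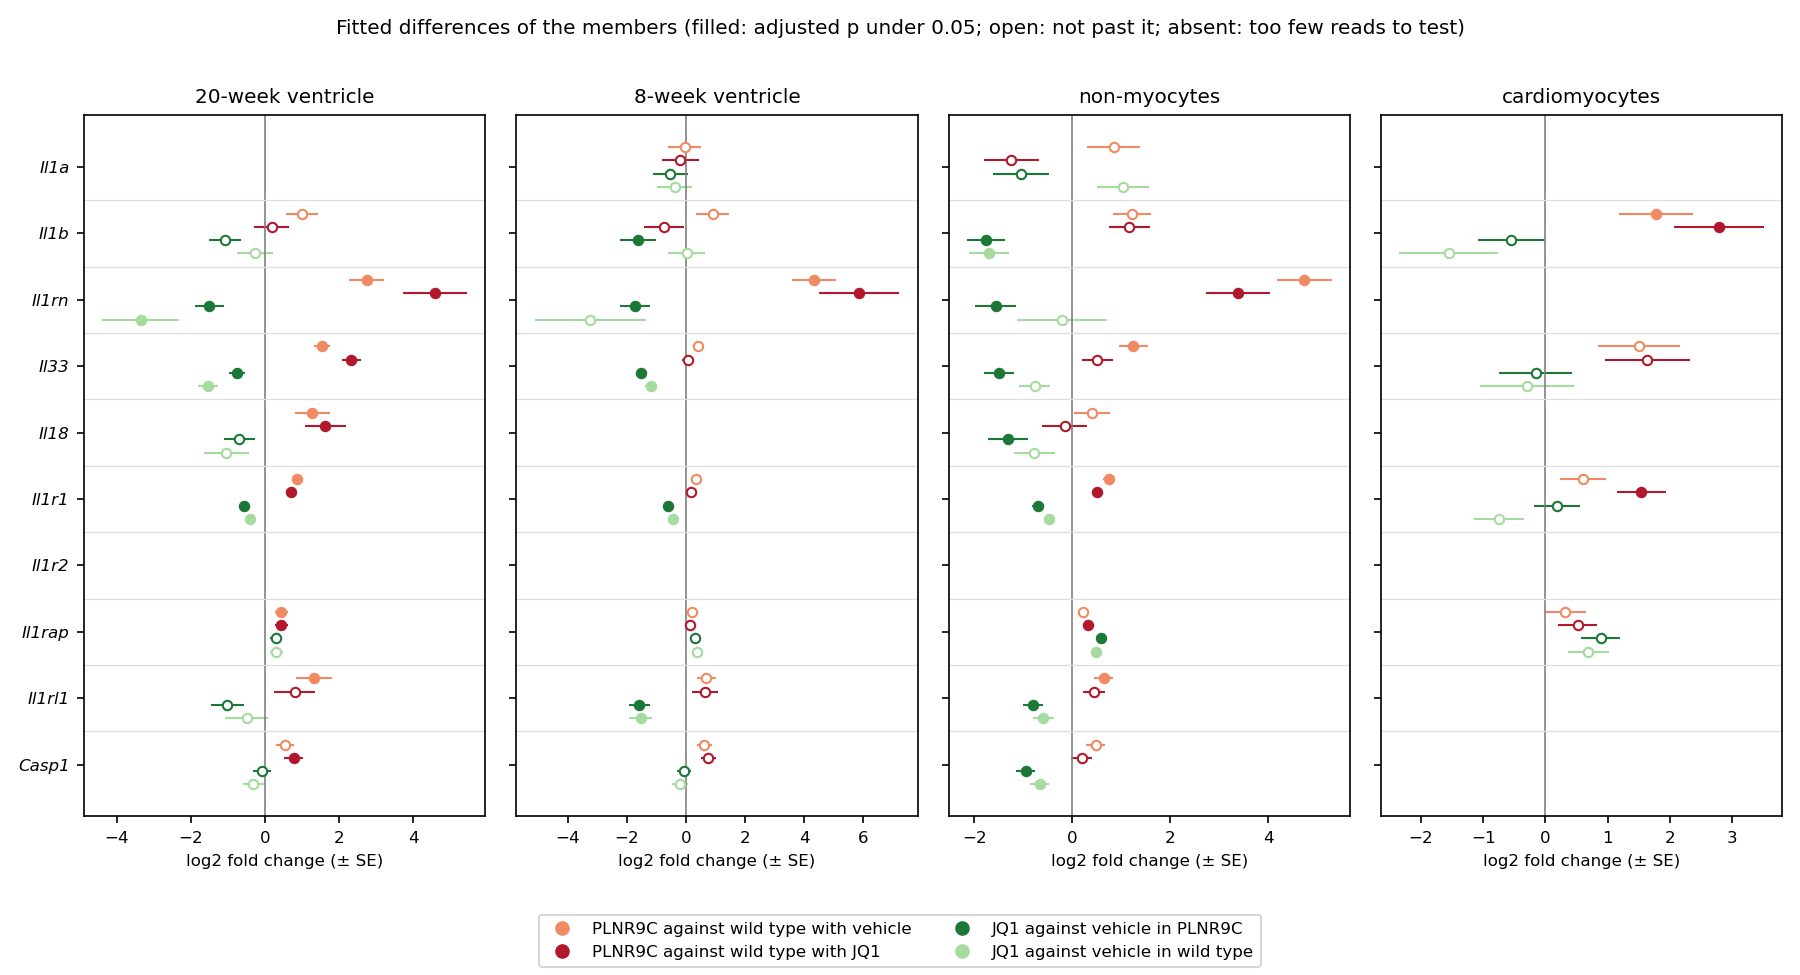
Log2 differences of the tested members in the 4 comparisons of each sample type, from edgeR's quasi-likelihood fit; marks distinguish estimates that passed an adjusted p of 0.05. Genotype estimates with vehicle lie above 0 for all 8 tested members of the 20-week ventricle, and Il1rap lies above 0 with JQ1 in non-myocytes while Il1b, Il33, Il1r1, Il1rl1 and Casp1 lie below.

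Il1b, the secreted ligand of Il1r1, had its highest levels in the non-myocytes. It had 55.05, 36.9 and 23.5 CPM in PLNR9C JQ1 non-myocytes, 167, 131 and 94.6 CPM with PLNR9C vehicle, 9.54, 13.9 and 28.1 CPM with wild type JQ1 and 66.3, 53.4 and 48.4 CPM with wild type vehicle. Every JQ1 library lay below every vehicle library of its genotype, and every PLNR9C vehicle library above every wild type vehicle library. Il1b fell 3.38-fold with JQ1 in PLNR9C non-myocytes (log2 -1.76 ± 0.39, adjusted p = 0.0064, edgeR) and 3.25-fold in wild type non-myocytes (log2 -1.70 ± 0.41, adjusted p = 0.0092). The genotype difference with vehicle was 1.22 ± 0.38 on the log2 scale with adjusted p = 0.052, which missed the threshold. With the replicate numbers as a block over the 6 vehicle libraries, it was 1.21 with adjusted p = 0.00062 (edgeR). That block was chosen because same-numbered libraries correlated in these same data, and the labels give no pairing. Its smaller p is therefore not independent evidence, and the call remains a miss. With JQ1 the genotype difference was 1.16 ± 0.42 (adjusted p = 0.082), and the libraries overlapped.

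In the ventricle Il1b was scarce. At 20 weeks it had 0.664, 0.834 and 0.301 CPM in PLNR9C JQ1 hearts, 0.804, 2.07 and 1.02 CPM in PLNR9C hearts given vehicle, 0.362, 0.498 and 0.732 CPM in wild type JQ1 hearts and 0.736, 0.666 and 0.507 CPM in wild type vehicle hearts. None of its 20-week comparisons passed. The PLNR9C vehicle libraries were all above the wild type vehicle libraries (log2 0.99 ± 0.43, adjusted p = 0.072, edgeR), and the JQ1 difference in PLNR9C was -1.08 ± 0.42 (adjusted p = 0.06). At 8 weeks Il1b had 0.182, 0.287 and 0.173 CPM in PLNR9C JQ1 hearts, 0.654, 0.463 and 0.995 CPM in PLNR9C hearts given vehicle, 0.266, 0.178 and 0.667 CPM in wild type JQ1 hearts and 0.235, 0.714 and 0.0995 CPM in wild type vehicle hearts. It fell 3.08-fold with JQ1 in PLNR9C hearts at this age (log2 -1.62 ± 0.61, adjusted p = 0.049), with no overlap. That call was lost without any of the PLNR9C JQ1 libraries or without PLNR9C vehicle replicate 1 or 3 (adjusted p 0.073 to 0.16), with DESeq2 (adjusted p = 0.063) and with the replicate block (adjusted p = 0.061).

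In cardiomyocytes Il1b had 1.72, 5.66 and 2.01 CPM with PLNR9C JQ1, 6.54, 4.17 and 3.13 CPM with PLNR9C vehicle, 0, 0.521 and 0.837 CPM with wild type JQ1 and 1.86, 1.38 and 0.757 CPM with wild type vehicle. The PLNR9C libraries lay above the wild type libraries under either treatment. With vehicle Il1b rose 3.42-fold in PLNR9C (log2 1.78 ± 0.60, adjusted p = 0.046, edgeR), a call lost without any 1 of the 6 libraries (adjusted p 0.051 to 0.15). No filter on low counts (adjusted p = 0.065) and the replicate block (0.053) lost that call too. With JQ1 Il1b was 6.898-fold higher (log2 2.79 ± 0.72, adjusted p = 0.015), or log2 2.06 with adjusted p = 0.057 without PLNR9C JQ1 replicate 2. A fit of the 2 JQ1 groups alone also lost this call (adjusted p = 0.05). Macrophage markers summed to 257 to 785 CPM in PLNR9C JQ1, 268 to 328 CPM in PLNR9C vehicle, 55 to 84 CPM in wild type JQ1 and 49 to 69 CPM in wild type vehicle cardiomyocytes, and their part in the Il1b difference was not tested.

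Il1a, the other ligand of Il1r1, passed in no comparison that could be tested within a sample type. In non-myocytes it had 0.526, 1.11 and 0.535 CPM with PLNR9C JQ1, 2.27, 1.09 and 1.14 CPM with PLNR9C vehicle, 1.105, 0.724 and 3.27 CPM with wild type JQ1 and 0.798, 1.02 and 0.686 CPM with wild type vehicle. The PLNR9C vehicle libraries lay above the wild type vehicle libraries, the other pairs of groups compared overlapped, and wild type JQ1 replicate 3 was the highest library. The genotype difference was 0.84 ± 0.54 on the log2 scale with vehicle (adjusted p = 0.32, edgeR) and -1.25 ± 0.56 with JQ1 (adjusted p = 0.15). In the ventricle Il1a had between 18 and 37 reads per group, and 14 to 16 reads per group in cardiomyocytes.

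Il1rn, the receptor antagonist, showed the largest genotype difference of the members tested in the 20-week ventricle, the 8-week ventricle and the non-myocytes. In non-myocytes it had 5.17, 4.25 and 3.21 CPM with PLNR9C JQ1, 22.2, 6.82 and 8.61 CPM with PLNR9C vehicle, 0.1004, 0.517 and 0.5602 CPM with wild type JQ1 and 0.7097, 0.339 and 0.343 CPM with wild type vehicle. All PLNR9C libraries lay above all wild type libraries. With vehicle Il1rn rose 26.6-fold in PLNR9C non-myocytes (log2 4.74 ± 0.56, adjusted p = 0.00014, edgeR) and with JQ1 it was 10.4-fold higher (log2 3.38 ± 0.65, adjusted p = 0.0033). JQ1 lowered it 2.96-fold in PLNR9C non-myocytes (log2 -1.57 ± 0.41, adjusted p = 0.011). In wild type non-myocytes Il1rn had 12 reads with JQ1 and 16 with vehicle.

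Il1rn in the 20-week ventricle had 0.419, 0.764 and 0.339 CPM in PLNR9C JQ1 hearts, 1.51, 1.28 and 1.56 CPM in PLNR9C hearts given vehicle, 0, 0 and 0.0488 CPM in wild type JQ1 hearts and 0.346, 0.133 and 0.152 CPM in wild type vehicle hearts. The 4 groups separated in the order PLNR9C vehicle, PLNR9C JQ1, wild type vehicle and wild type JQ1, except that 1 PLNR9C JQ1 library lay just below the highest wild type vehicle library. Il1rn rose 6.66-fold in PLNR9C with vehicle (log2 2.73 ± 0.47, adjusted p = 0.00012, edgeR) and fell 2.83-fold with JQ1 in PLNR9C (log2 -1.498 ± 0.40, adjusted p = 0.0077). In wild type hearts it fell with JQ1 (adjusted p = 0.022) to 1 read over the group, against 14 with vehicle, a ratio of 0.0702 (95% interval 0.00166 to 0.461). That call was lost without wild type JQ1 replicate 1 or 2 or wild type vehicle replicate 1 (adjusted p 0.071 to 0.097). With JQ1 it was higher in PLNR9C than in wild type (adjusted p = 0.00033), with 43 reads against 1, a ratio of 38.9 (95% interval 6.61 to 1571).

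At 8 weeks, the age labelled preDCM, Il1rn was the single member whose genotype difference passed the threshold in the main fit. It had 0.319, 0.538 and 0.0575 CPM in PLNR9C JQ1 hearts, 0.884, 1.39 and 1.05 CPM in PLNR9C hearts given vehicle, 0 CPM in each of the 3 wild type JQ1 hearts and 0.0587, 0.08397 and 0 CPM in wild type vehicle hearts. With vehicle the group totals were 72 reads in PLNR9C and 3 in wild type, a ratio of 24.2 (95% interval 7.95 to 120; adjusted p = 0.00073, edgeR). With JQ1 they were 23 and 0 reads, a ratio of 7.66 against a floor of 3 reads (adjusted p = 0.015, or 0.092 without PLNR9C JQ1 replicate 2). JQ1 lowered Il1rn 3.29-fold in PLNR9C hearts (log2 -1.72 ± 0.51, adjusted p = 0.015), a call lost without PLNR9C JQ1 replicate 3 or PLNR9C vehicle replicate 2 (adjusted p 0.06 to 0.068). In cardiomyocytes, where it was not tested, Il1rn had 29 reads with PLNR9C vehicle and 0 with wild type vehicle, a ratio of 9.60 against a floor of 3 reads. It had 13 with PLNR9C JQ1 against 1 with wild type JQ1, a ratio of 12.4 (95% interval 1.86 to 526).

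The ratio of antagonist to ligand, Il1rn over Il1b by RPKM, was computed within each library as a description. In the 20-week ventricle it was 2.60, 0.862 and 2.11 in PLNR9C vehicle hearts and 0.652, 0.277 and 0.415 in wild type vehicle hearts. In non-myocytes it was 0.185, 0.0722 and 0.126 with PLNR9C vehicle and 0.0148, 0.00879 and 0.00983 with wild type vehicle. The PLNR9C vehicle ratios were the higher in both sample types, without overlap. The wild type vehicle ratios rest on few Il1rn reads, 8, 3 and 3 at 20 weeks and 8, 4 and 4 in non-myocytes. Their counting error was not computed. The absolute size of the ratio rests on uncertain lengths of both genes. For Il1rn the deposited values use 2691 bases while the annotated exons cover 5535 bases.

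Il33, the ligand of Il1rl1, fell with JQ1 in both genotypes in the ventricle. At 20 weeks it had 8.004, 11.8 and 8.59 CPM in PLNR9C JQ1 hearts, 18.6, 15.2 and 13.8 CPM in PLNR9C hearts given vehicle, 2.12, 2.08 and 1.46 CPM in wild type JQ1 hearts and 7.75, 4.75 and 3.85 CPM in wild type vehicle hearts. The libraries of each group lay apart from those of every other group. Il33 rose 2.9-fold in PLNR9C with vehicle (log2 1.54 ± 0.22, adjusted p = 4e-05, edgeR) and was 5.002-fold higher with JQ1 (log2 2.32 ± 0.26, adjusted p = 3.8e-06). JQ1 lowered it 1.68-fold in PLNR9C (log2 -0.75 ± 0.21, adjusted p = 0.014) and 2.896-fold in wild type (log2 -1.53 ± 0.27, adjusted p = 0.00069). The PLNR9C call was lost without PLNR9C JQ1 replicate 1 or 3 or PLNR9C vehicle replicate 1 (adjusted p 0.056 to 0.068).

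In the 8-week ventricle Il33 had 3.05, 2.51 and 2.19 CPM in PLNR9C JQ1 hearts, 8.69, 7.31 and 6.08 CPM in PLNR9C hearts given vehicle, 2.44, 2.62 and 2.36 CPM in wild type JQ1 hearts and 4.34, 6.72 and 5.62 CPM in wild type vehicle hearts. The JQ1 groups of both genotypes overlapped near 2 to 3 CPM. Il33 fell 2.85-fold in PLNR9C (log2 -1.51 ± 0.19, adjusted p = 7.6e-06, edgeR) and 2.26-fold in wild type (log2 -1.18 ± 0.20, adjusted p = 0.00016). With vehicle the genotype difference was 0.40 ± 0.18 on the log2 scale (adjusted p = 0.15), with overlapping libraries.

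In non-myocytes Il33 had 11.7, 23.9 and 18.6 CPM with PLNR9C JQ1, 44, 50.02 and 59.1 CPM with PLNR9C vehicle, 7.63, 15.9 and 14.3 CPM with wild type JQ1 and 14.6, 25.3 and 24.4 CPM with wild type vehicle. The 3 PLNR9C vehicle libraries stood above all 9 others. Il33 rose 2.38-fold with genotype under vehicle (log2 1.25 ± 0.30, adjusted p = 0.014, edgeR) and fell 2.83-fold with JQ1 in PLNR9C (log2 -1.504 ± 0.30, adjusted p = 0.0028). In wild type the JQ1 difference was -0.77 ± 0.32 (adjusted p = 0.078), with overlapping libraries, and DESeq2 gave adjusted p = 0.036. In cardiomyocytes Il33 had 0.944, 4.78 and 2.91 CPM with PLNR9C JQ1, 3.99, 3.38 and 2.35 CPM with PLNR9C vehicle, 0.181, 0.939 and 1.67 CPM with wild type JQ1 and 0.354, 1.55 and 1.51 CPM with wild type vehicle. The genotype difference there was 1.503 ± 0.66 with vehicle (adjusted p = 0.11) and 1.64 ± 0.68 with JQ1 (adjusted p = 0.098).

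Il18, the other caspase-1 substrate, was present at low levels. At 20 weeks it had 0.804, 0.347 and 0.377 CPM in PLNR9C JQ1 hearts, 0.871, 0.689 and 0.924 CPM in PLNR9C hearts given vehicle, 0.207, 0.136 and 0.146 CPM in wild type JQ1 hearts and 0.346, 0.178 and 0.507 CPM in wild type vehicle hearts. PLNR9C libraries lay above wild type libraries under either treatment. Il18 rose 2.42-fold with vehicle (log2 1.28 ± 0.46, adjusted p = 0.032, edgeR), a call lost without PLNR9C vehicle replicate 1 or 3 or wild type vehicle replicate 1 or 2 (adjusted p 0.072 to 0.13). With no filter on low counts Il18 did not pass there either (adjusted p = 0.058). With JQ1 it was 3.09-fold higher (log2 1.63 ± 0.56, adjusted p = 0.027), lost without PLNR9C JQ1 replicate 1 or wild type JQ1 replicate 2 or 3 (adjusted p 0.075 to 0.16). In PLNR9C non-myocytes Il18 had 1.403, 1.93 and 0.535 CPM with JQ1 and 3.75, 2.82 and 3.21 CPM with vehicle, and it fell 2.498-fold (log2 -1.32 ± 0.41, adjusted p = 0.022, or 0.063 to 0.083 without PLNR9C JQ1 replicate 3 or PLNR9C vehicle replicate 1). The 8-week groups held 10 to 21 Il18 reads each. Cardiomyocytes held 11 Il18 reads with PLNR9C JQ1, 10 with PLNR9C vehicle, 2 with wild type JQ1 and 6 with wild type vehicle.

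Il1r1, the signalling receptor of interleukin-1, changed by less than 2-fold in the ventricle and non-myocytes but with little spread. At 20 weeks it had 21.98, 20.7 and 20.2 CPM in PLNR9C JQ1 hearts, 31.7, 28.4 and 33.2 CPM in PLNR9C hearts given vehicle, 11.5, 10.8 and 16.4 CPM in wild type JQ1 hearts and 19.3, 16.6 and 15.7 CPM in wild type vehicle hearts. All PLNR9C libraries lay above all wild type libraries. It rose 1.81-fold with vehicle (log2 0.86 ± 0.13, adjusted p = 3.1e-05, edgeR) and was 1.62-fold higher with JQ1 (log2 0.70 ± 0.13, adjusted p = 0.00039). JQ1 lowered it 1.49-fold in PLNR9C (log2 -0.57 ± 0.13, adjusted p = 0.0024) and 1.33-fold in wild type (log2 -0.41 ± 0.14, adjusted p = 0.03). The wild type libraries overlapped and that call was lost without wild type JQ1 replicate 1 or 2 or wild type vehicle replicate 1 or 2 (adjusted p 0.055 to 0.15). A fit of these 2 groups alone also lost it (adjusted p = 0.091).

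In the 8-week ventricle Il1r1 had 12.8, 13.9 and 15.7 CPM in PLNR9C JQ1 hearts, 19.6, 22.2 and 22.6 CPM in PLNR9C hearts given vehicle, 12.2, 14.3 and 11.2 CPM in wild type JQ1 hearts and 17.5, 18.7 and 15.2 CPM in wild type vehicle hearts. JQ1 libraries lay below the vehicle libraries of their genotype. Il1r1 fell 1.52-fold in PLNR9C (log2 -0.60 ± 0.11, adjusted p = 0.00041, edgeR) and 1.36-fold in wild type (log2 -0.45 ± 0.12, adjusted p = 0.0061). The genotype difference with vehicle was 0.32 ± 0.11 (adjusted p = 0.057), without overlap, and adjusted p = 0.047 with a fit of these 2 groups alone.

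In non-myocytes Il1r1 had 74.95, 91.99 and 98.2 CPM with PLNR9C JQ1, 143, 130.2 and 159.8 CPM with PLNR9C vehicle, 63.2, 63.4 and 59.2 CPM with wild type JQ1 and 94.6, 81.8 and 82.1 CPM with wild type vehicle. PLNR9C vehicle was the highest group and wild type JQ1 the lowest, and the groups between them overlapped. It rose 1.68-fold with genotype under vehicle (log2 0.75 ± 0.11, adjusted p = 0.00042, edgeR) and was 1.43-fold higher under JQ1 (log2 0.51 ± 0.11, adjusted p = 0.0056). JQ1 lowered it 1.64-fold in PLNR9C (log2 -0.71 ± 0.11, adjusted p = 0.00026) and 1.39-fold in wild type (log2 -0.48 ± 0.11, adjusted p = 0.0042). In cardiomyocytes it had 5.75, 21.3 and 13.5 CPM with PLNR9C JQ1, 13.8, 8.48 and 13.6 CPM with PLNR9C vehicle, 5.07, 4.902 and 4 CPM with wild type JQ1 and 9.84, 7.06 and 6.62 CPM with wild type vehicle. The second PLNR9C JQ1 library, which also stood apart in its fibroblast markers, was the highest. With JQ1, Il1r1 was 2.91-fold higher in PLNR9C cardiomyocytes (log2 1.54 ± 0.39, adjusted p = 0.014), or log2 1.07 with adjusted p = 0.051 without that library; the call was also lost without wild type JQ1 replicate 3 (adjusted p = 0.055).

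Il1rap, the chain shared by the interleukin-1 and interleukin-33 receptors, rose with JQ1 in the non-myocytes of both genotypes, where other members fell. In non-myocytes it had 51.02, 50.5 and 51.5 CPM with PLNR9C JQ1, 34.5, 32.1 and 35.1 CPM with PLNR9C vehicle, 37.8, 39.9 and 45.2 CPM with wild type JQ1 and 29.2, 29.5 and 29.1 CPM with wild type vehicle. The groups did not overlap. Il1rap rose 1.505-fold with JQ1 in PLNR9C (log2 0.59 ± 0.09, adjusted p = 0.0002, edgeR) and 1.401-fold in wild type (log2 0.49 ± 0.09, adjusted p = 0.00082). With JQ1 it was 1.25-fold higher in PLNR9C (log2 0.32 ± 0.09, adjusted p = 0.022, or 0.052 to 0.067 without wild type JQ1 replicate 1 or 2). Il1rap in the 20-week ventricle had 12.02, 13.7 and 14.4 CPM in PLNR9C JQ1 hearts, 10.6, 12.3 and 9.58 CPM in PLNR9C hearts given vehicle, 9.41, 8.02 and 12.1 CPM in wild type JQ1 hearts and 6.103, 9.197 and 8.67 CPM in wild type vehicle hearts. PLNR9C vehicle libraries were above wild type vehicle libraries, and the JQ1 groups overlapped.

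The 20-week genotype difference of Il1rap was 1.35-fold with vehicle (log2 0.44 ± 0.17, adjusted p = 0.044, edgeR) and 1.36-fold with JQ1 (log2 0.44 ± 0.17, adjusted p = 0.042). The vehicle call was lost without PLNR9C vehicle replicate 1 or 2 or wild type vehicle replicate 1 (adjusted p 0.082 to 0.2). The JQ1 call was lost without PLNR9C JQ1 replicate 2 or 3 or wild type JQ1 replicate 1 or 2 (adjusted p 0.1 to 0.2). In the 8-week ventricle the JQ1 difference in wild type was 0.36 ± 0.15 (adjusted p = 0.067), and in PLNR9C cardiomyocytes it was 0.89 ± 0.31 (adjusted p = 0.085). Neither passed.

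Il1rl1, the interleukin-33 receptor ST2, fell with JQ1 in the 8-week ventricle. It had 0.455, 0.6102 and 0.288 CPM in PLNR9C JQ1 hearts, 1.46, 1.11 and 1.66 CPM in PLNR9C hearts given vehicle, 0.266, 0.311 and 0.311 CPM in wild type JQ1 hearts and 0.881, 0.882 and 0.846 CPM in wild type vehicle hearts. JQ1 libraries lay below vehicle libraries in both genotypes. The fall was 2.98-fold in PLNR9C (log2 -1.57 ± 0.34, adjusted p = 0.0015, edgeR) and 2.88-fold in wild type (log2 -1.53 ± 0.40, adjusted p = 0.0064). With vehicle the genotype difference at 8 weeks was 0.69 ± 0.32 (adjusted p = 0.17), without overlap. Il1rl1 in the 20-week ventricle had 0.349, 0.417 and 0.603 CPM in PLNR9C JQ1 hearts, 1.57, 0.505 and 0.583 CPM in PLNR9C hearts given vehicle, 0.207, 0.272 and 0.293 CPM in wild type JQ1 hearts and 0.3896, 0.3999 and 0.304 CPM in wild type vehicle hearts. PLNR9C vehicle replicate 1 was the highest library. The rise with genotype under vehicle was 2.49-fold (log2 1.32 ± 0.48, adjusted p = 0.031), and it was lost without that library or without any 1 of the wild type vehicle libraries (log2 0.56 to 1.39, adjusted p 0.062 to 0.4). DESeq2 and the replicate block lost the call too, each at an adjusted p of 0.05.

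In non-myocytes Il1rl1 had 3.24, 2.23 and 2.78 CPM with PLNR9C JQ1, 4.97, 4.91 and 4.54 CPM with PLNR9C vehicle, 1.81, 1.97 and 2.33 CPM with wild type JQ1 and 3.28, 2.79 and 3.17 CPM with wild type vehicle. Every JQ1 library lay below the vehicle libraries of its genotype. It rose 1.56-fold with genotype under vehicle (log2 0.64 ± 0.20, adjusted p = 0.036, edgeR), a call lost without any 1 of the 6 libraries (adjusted p 0.052 to 0.11) and with the replicate block (adjusted p = 0.06). DESeq2 (adjusted p = 0.055) and no filter on low counts (0.077) lost that call too. JQ1 lowered Il1rl1 1.74-fold in PLNR9C (log2 -0.80 ± 0.20, adjusted p = 0.0073) and 1.51-fold in wild type (log2 -0.59 ± 0.22, adjusted p = 0.046). The wild type call was lost without wild type JQ1 replicate 1 or 2 or any 1 of the wild type vehicle libraries (adjusted p 0.06 to 0.13). It was also lost with DESeq2 (adjusted p = 0.1) and with no filter on low counts (0.099). The replicate block (0.059) and the 2 groups alone (0.075) lost it as well. In cardiomyocytes Il1rl1 had 9 reads with PLNR9C vehicle and 1 with wild type vehicle, a ratio of 8.93 (95% interval 1.24 to 392), and 3 reads with PLNR9C JQ1, a ratio of 0.315 to PLNR9C vehicle (95% interval 0.0549 to 1.26).

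Mast cells are known to carry ST2, and the 10 mast cell markers, summed in non-myocytes, did not move together with JQ1. Their sums were 131.1 to 134 CPM with PLNR9C JQ1, 89.1 to 113.9 CPM with PLNR9C vehicle, 188.2 to 225.5 CPM with wild type JQ1 and 148.1 to 163.3 CPM with wild type vehicle, so that each JQ1 group lay above the vehicle group of its genotype and each PLNR9C group below the wild type group of its treatment. Most of the sum was Gata2, a transcription factor that endothelial cells also carry, at means of 92.7, 60.4, 165.4 and 116.9 CPM in those groups, and Kit, at 35.7, 28.6, 39.05 and 25.7 CPM. Of the 4 markers tested, Gata2 rose with JQ1 in both genotypes and Kit in wild type, while Hdc, the histamine-forming enzyme, fell in both. The proteases Cpa3, Cma1, Mcpt4 and Tpsb2 had means of at most 1.55 CPM in any of the 4 non-myocyte groups. With JQ1 and vehicle in turn, Mcpt4 had 14 and 26 reads in PLNR9C, and 48 and 47 in wild type. Tpsb2 had 13 and 13 in PLNR9C, and 37 and 20 in wild type. Cpa3 and Cma1 had 4 to 16 reads per group. Of the genes for the mast cell receptors Fcer1a had 0 reads in all 4, Ms4a2 1 or 0 and Mrgprb1 3 or 0. In PLNR9C 20-week ventricle with vehicle, Mcpt4 rose and Gata2 fell, where 23.3% of all genes rose and 21.4% fell. Mcpt4 was scarce there, with 30 reads in PLNR9C vehicle and 8 in wild type vehicle hearts. The part of mast cells in the Il1rl1 differences was not tested.

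Il1r2, the decoy receptor, was near the floor outside the non-myocytes. In non-myocytes it had 0.526, 1.01 and 0.963 CPM with PLNR9C JQ1, 1.57, 0.455 and 2.08 CPM with PLNR9C vehicle, 0, 0.621 and 0.5602 CPM with wild type JQ1 and 0.444, 0.423 and 0.515 CPM with wild type vehicle. The groups overlapped. At 20 weeks it had 10 reads with PLNR9C JQ1, 6 with PLNR9C vehicle, 0 with wild type JQ1 and 7 with wild type vehicle. Against a floor of 3 reads for the wild type JQ1 group, the ratio was 3.01 for PLNR9C JQ1 hearts and 2.37 for wild type vehicle hearts. Wild type vehicle replicate 2 also had 0 reads, so the wild type libraries overlapped. In the 8-week ventricle Il1r2 had 3 reads with PLNR9C JQ1, 2 with PLNR9C vehicle, 6 with wild type JQ1 and 0 with wild type vehicle. Against a floor of 3 reads for wild type vehicle, the wild type JQ1 ratio was 1.84. These ratios leave out the counting error of the few reads in the higher group, and none was tested. In cardiomyocytes 1 read was counted with PLNR9C vehicle and 0 in each of the other groups.

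Casp1, the protease of the inflammasome, passed in the ventricle only between JQ1 groups at 20 weeks. At 20 weeks it had 2.59, 2.64 and 2.75 CPM in PLNR9C JQ1 hearts, 2.85, 1.79 and 3.79 CPM in PLNR9C hearts given vehicle, 1.91, 1.495 and 1.27 CPM in wild type JQ1 hearts and 1.95, 1.82 and 2.03 CPM in wild type vehicle hearts. With JQ1 the PLNR9C libraries were above the wild type ones, and with vehicle they overlapped. Casp1 was 1.71-fold higher in PLNR9C with JQ1 (log2 0.77 ± 0.26, adjusted p = 0.024, edgeR), a call lost without PLNR9C JQ1 replicate 2 or 3 or wild type JQ1 replicate 2 or 3 (adjusted p 0.055 to 0.097). With vehicle the difference was 0.54 ± 0.25 (adjusted p = 0.093). At 8 weeks it had 2.05, 1.902 and 2.07 CPM in PLNR9C JQ1 hearts, 2.04, 1.85 and 2.49 CPM in PLNR9C hearts given vehicle, 1.06, 1.51 and 0.978 CPM in wild type JQ1 hearts and 1.41, 1.18 and 1.54 CPM in wild type vehicle hearts. The PLNR9C libraries were the higher at both treatments, with log2 differences of 0.75 ± 0.25 with JQ1 (adjusted p = 0.085) and 0.63 ± 0.25 with vehicle (adjusted p = 0.1).

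In non-myocytes Casp1 had 5.61, 5.17 and 4.38 CPM with PLNR9C JQ1, 12.4, 9.004 and 8.04 CPM with PLNR9C vehicle, 4.12, 5.17 and 4.01 CPM with wild type JQ1 and 6.74, 7.96 and 6.43 CPM with wild type vehicle. JQ1 libraries lay below vehicle libraries in both genotypes. It fell 1.94-fold in PLNR9C (log2 -0.95 ± 0.20, adjusted p = 0.0021) and 1.59-fold in wild type (log2 -0.67 ± 0.20, adjusted p = 0.019, or 0.063 to 0.078 without wild type JQ1 replicate 1 or 3 or wild type vehicle replicate 2). Cardiomyocytes held 26 Casp1 reads with PLNR9C JQ1, 17 with PLNR9C vehicle, 10 with wild type JQ1 and 25 with wild type vehicle.

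Other genes of the pathway were counted over lists chosen for this description. Of 16 other interleukin-1 family ligands and receptors, 12 were in the tables and 4 or 5 were tested in ventricle and non-myocytes. With vehicle, Il18bp, the soluble inhibitor of interleukin-18, and Il1rl2, the interleukin-36 receptor, rose in PLNR9C 20-week ventricle (log2 0.91 and 0.99), while Sigirr, an inhibitory receptor of the family, fell (log2 -0.57). Il1rl2 fell with JQ1 in each of these 3 sample types and in both genotypes: log2 -2.09 in PLNR9C and -2.22 in wild type at 20 weeks, -1.997 and -2.10 at 8 weeks, and -2.05 and -2.15 in non-myocytes. In PLNR9C non-myocytes, where 19.5% of all genes fell with JQ1, all 5 tested genes of this list fell, Il18r1 among them at -1.38.

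Of 18 signalling genes below the receptors, 4 (22.2%) rose and 5 (27.8%) fell in PLNR9C 20-week ventricle with vehicle, with a median log2 difference of -0.01. Over all genes 23.3% rose and 21.4% fell there, so neither share sets the list apart. Myd88, the adaptor of these receptors, rose at 20 weeks (log2 0.40) and at 8 weeks (0.47). With JQ1 in PLNR9C, 2 rose and 3 fell at 20 weeks (15.9% of all genes rose and 16.1% fell), and 3 rose and 5 fell at 8 weeks (15.5% and 17.7% of all genes). In PLNR9C non-myocytes 4 rose and 5 fell (16.7% and 19.5% of all genes), and in cardiomyocytes 1 rose and 2 fell (6.14% and 4.33% of all genes). Tab1, a partner of the kinase TAK1, fell with JQ1 in all 4 sample types of PLNR9C: -1.01 at 20 weeks, -1.04 at 8 weeks, -1.29 in non-myocytes and -1.34 in cardiomyocytes. In wild type the values were -1.03, -1.16, -1.46 and -1.33 in that order. In wild type 2 of the 18 rose and 7 fell with JQ1 at 20 weeks (12.3% of all genes rose and 14.9% fell), 3 rose and 5 fell at 8 weeks (14.3% and 15.4% of all genes), and 4 rose and 3 fell in non-myocytes (18.0% and 20.0% of all genes).

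Inflammasome and processing genes numbered 18, with 14 tested in the 20-week ventricle and in non-myocytes. In PLNR9C with vehicle 10 of 14 rose at 20 weeks (71.4%, against 23.3% of all genes), with a median log2 difference of 0.56 against 0.01 over all genes. In the 8-week ventricle 4 of 13 rose (30.8%, against 7.86% of all genes), in non-myocytes 8 of 14 (57.1%, against 10.3%) and in cardiomyocytes 7 of 11 (63.6%, against 14.3%). Panx1, a membrane channel that releases ATP, had the largest rise of those named at 3.61 in the 20-week ventricle, and P2rx7, the ATP receptor upstream of the inflammasome, rose by 1.35. With JQ1 in PLNR9C 1 rose and 9 (64.3%) fell at 20 weeks and again in non-myocytes, where 16.1% and 19.5% of all genes fell, and 2 rose and 7 of 13 (53.8%) fell at 8 weeks, against 17.7% of all genes. In wild type 2 rose and 6 (42.9%) fell at 20 weeks, against 14.9% of all genes, 2 rose and 4 (30.8%) fell at 8 weeks, against 15.4%, and 7 (50%) fell in non-myocytes, against 20.0%. P2rx7 fell with JQ1 in PLNR9C by a log2 difference of -0.90 at 20 weeks and -1.21 in non-myocytes, Nlrp3, the inflammasome sensor, by -1.59 at 20 weeks, and Casp4, the related inflammatory caspase, by -1.33 in non-myocytes. Txnip was the one to rise (0.89 and 1.11). Over all genes 15.9% rose with JQ1 in PLNR9C at 20 weeks, 15.5% at 8 weeks and 16.7% in non-myocytes. In wild type 12.3% of all genes rose at 20 weeks and 14.3% at 8 weeks.

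Of 24 genes listed as known interleukin-1 responsive targets, 13 of 18 tested (72.2%, against 23.3% of all genes) rose in PLNR9C 20-week ventricle with vehicle, with a median of 1.01, and 7 of 16 (43.8%, against 7.86%) rose at 8 weeks. The shares were nearer to those of all genes in non-myocytes, with 3 of 20 (15%, against 10.3%), and in cardiomyocytes, with 4 of 16 (25%, against 14.3%). Mmp3, the protease stromelysin, rose by 3.97 at 20 weeks and 3.95 in non-myocytes, as log2 differences; Ptgs2, the inducible cyclooxygenase, rose by 2.42 at 20 weeks and Il6 by 2.31 in non-myocytes. With JQ1 in PLNR9C 1 rose and 8 (44.4%, against 16.1% of all genes) fell at 20 weeks, 1 rose and 6 (37.5%, against 17.7%) fell at 8 weeks, and 1 of 16 rose in cardiomyocytes (6.25%, against 6.14%). In PLNR9C non-myocytes 4 of 20 fell, a share of 20% that is close to the 19.5% of all genes and says nothing of the list. In wild type 1 rose and 8 (44.4%, against 14.9% of all genes) fell at 20 weeks, 1 rose and 4 (25%, against 15.4%) fell at 8 weeks, and 3 (15%, against 20.0%) fell in non-myocytes. In PLNR9C hearts given JQ1, Ptgs2 changed by -1.65 and Birc3, an apoptosis inhibitor, by -1.10 at 20 weeks, while Nfkbiz, a nuclear regulator of NF-kB, rose by 0.85. Over all genes 15.9% rose with JQ1 in PLNR9C at 20 weeks and 15.5% at 8 weeks, and 12.3% and 14.3% in wild type.

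Markers of cell types moved with genotype beside these genes. Of the macrophage and monocyte markers, 13 of 17 rose in PLNR9C 20-week ventricle with vehicle (23.3% of all genes), 13 of 17 at 8 weeks (7.86%), 12 of 17 in non-myocytes (10.3%) and 10 of 13 in cardiomyocytes (14.3%). Their summed level in the 20-week ventricle was 1058 to 1141 CPM with PLNR9C JQ1, 724 to 988 CPM with PLNR9C vehicle, 253 to 304 CPM with wild type JQ1 and 262 to 288 CPM with wild type vehicle. In non-myocytes the sums were 4312 to 4809, 4545 to 5227, 1459 to 1554 and 1880 to 2157 CPM in those groups. Of 12 fibroblast markers 11 rose at 20 weeks, 7 at 8 weeks, 7 in non-myocytes and 10 in cardiomyocytes. Cardiomyocyte markers fell in the 20-week ventricle for 11 of 12, where 21.4% of all genes fell. The part of these shifts in the genotype differences of the 10 genes was not tested.

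With JQ1 in PLNR9C the calls in the macrophage list differed between sample types. At 20 weeks 3 of 17 markers rose and 1 fell, where 15.9% of all genes rose and 16.1% fell. At 8 weeks 5 of 17 fell and in non-myocytes 7 of 17, where 17.7% and 19.5% of all genes fell. In wild type 3 of 17 fell at 20 weeks, 1 rose and 1 fell at 8 weeks, and 10 fell in non-myocytes, where 14.9%, 15.4% and 20.0% of all genes fell. At 8 weeks 14.3% of all genes rose with JQ1 in wild type. Ccr2, the chemokine receptor of recruited monocytes, singled out after its values were seen, had a mean of 0.974 CPM in PLNR9C JQ1, 25.2 CPM in PLNR9C vehicle, 0.367 CPM in wild type JQ1 and 4.51 CPM in wild type vehicle non-myocytes. It fell with JQ1 by a log2 difference of -4.64 in PLNR9C (adjusted p = 2.8e-05, edgeR) and -3.60 in wild type non-myocytes (adjusted p = 0.0012). The macrophage sums of PLNR9C JQ1 and PLNR9C vehicle non-myocytes overlapped, while those of wild type JQ1 lay below those of wild type vehicle non-myocytes. The part of these cells in the JQ1 differences of Il1b and the other members was not tested. Lymphocyte markers fell with JQ1 for 7 of 13 in PLNR9C non-myocytes (19.5% of all genes fell). In wild type non-myocytes 6 of 13 fell and 1 rose, where 20.0% of all genes fell and 18.0% rose.

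Of the remaining lists, 10 of 15 endothelial markers fell and 2 rose in PLNR9C 20-week ventricle with vehicle, where 21.4% of all genes fell and 23.3% rose. In non-myocytes 10 of 15 endothelial markers fell, where 8.32% of all genes fell. At 20 weeks 6 of 10 epicardial and mesothelial markers rose (23.3% of all genes). Smooth muscle and pericyte markers split, with 4 of 12 up and 4 down at 20 weeks (23.3% and 21.4% of all genes) and 8 of 12 down in non-myocytes (8.32%). Of 6 neutrophil markers 1 rose at 20 weeks, Csf3r (23.3% of all genes rose). Neutrophil sums in vehicle non-myocytes were 22.3 to 37.0 CPM in PLNR9C and 12.7 to 20.7 CPM in wild type. All 3 red cell markers tested rose with JQ1 in PLNR9C 20-week ventricle (15.9% of all genes), and 11 of 12 cardiomyocyte markers rose with JQ1 in wild type non-myocytes (18.0% of all genes).

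**Figure D4:**
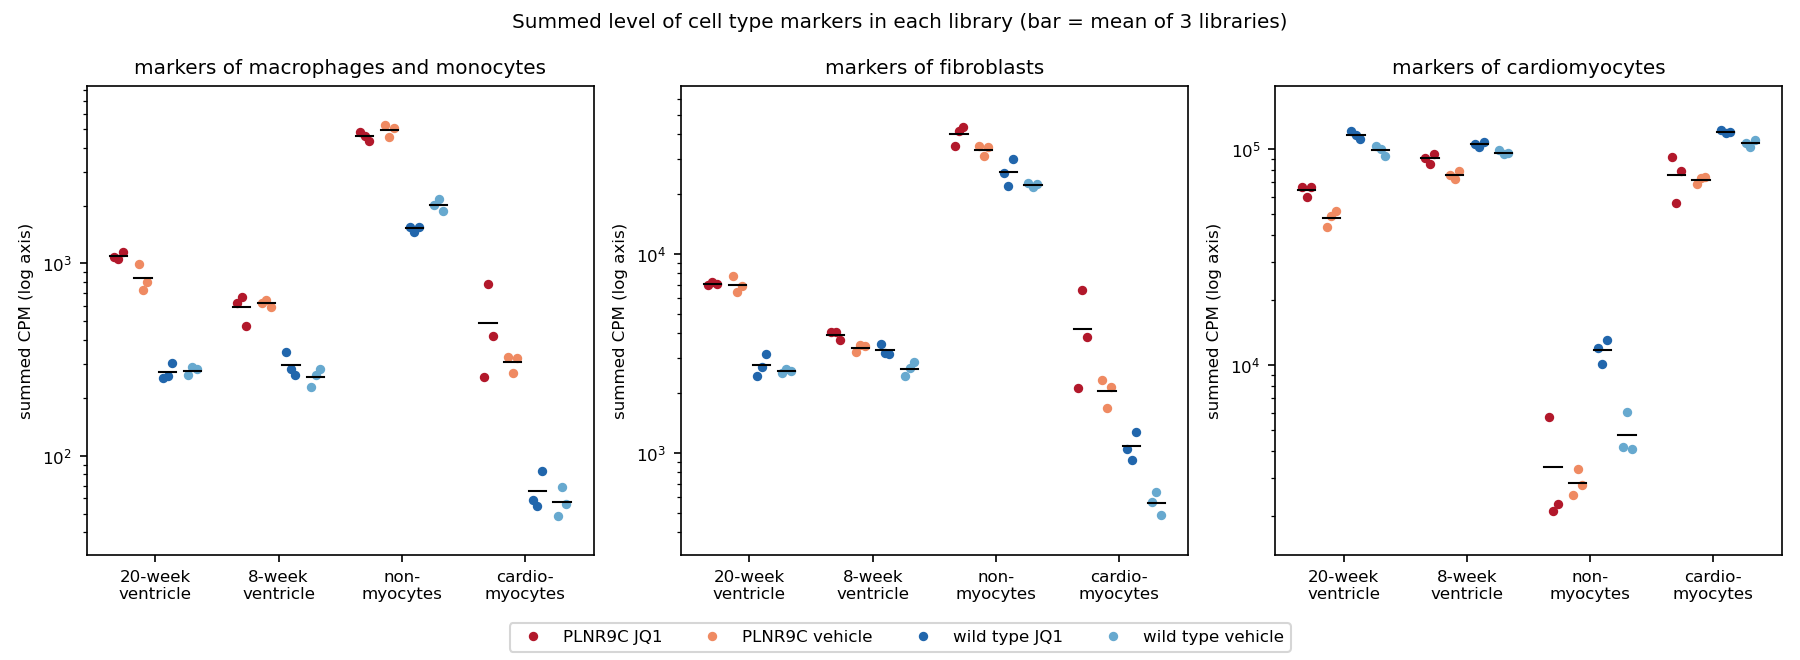
Summed CPM of marker lists in each library by sample type and group, on log axes. Macrophage sums in the 20-week ventricle lie between 724 and 1141 CPM in PLNR9C and between 253 and 304 CPM in wild type.

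The genes whose level over the 16 groups was most like that of a member were found by Pearson's r over 13694 genes. The log2 group means were first centred on the mean of their sample type, which takes out differences between sample types. This is a description, and groups within a sample type still differ in cell makeup. For Il33 the most similar genes were Tifa (r = 0.97), Trps1 (r = 0.96) and Lpar1 (r = 0.96), and for Il1r1 Zfp90 (r = 0.98), Lyl1 (r = 0.97) and Capg (r = 0.97). For Il1b they were Tbxas1 (r = 0.94), Pes1 (r = 0.93) and AK085371 (r = 0.93). Il1rl1 was not tested in every sample type, so none was named.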

How the data were processed

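RNA from 48 libraries was sequenced by the authors, and the deposited tables hold, per the file headers, a whole-number read count and an RPKM value per gene and library. The gene length implied by the authors' RPKM and counts is constant across libraries within 0.094%. STAR 2.4.1b and the builds GRCm38 and mm10 are listed, per the submitters' processing notes. Counter, annotation and strand setting were not given in the sources used here.

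Each sample type was fitted apart, with its 4 groups of 3, by edgeR 4.0.16 quasi-likelihood tests in R 4.3.3 (TMM scaling, filterByExpr, Benjamini-Hochberg adjustment over all genes tested, threshold 0.05). The fractions were compared in one fit of their shared table. CPM are counts scaled by the TMM library size, and a standard error is the size of the log2 difference divided by the square root of F. The steps were tested on simulated data. Alternatives were DESeq2 1.42.0, no filter on low counts, the 2 groups alone, the replicate number as a block, and each library left out. Replicate libraries were compared and no 2 agreed within sampling noise.

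Groups share replicate numbers in the labels. Deviations of same-numbered libraries correlated over 0.1 in every pair only for PLNR9C against wild type vehicle non-myocytes (r = 0.388, 0.183 and 0.29), with no source for a pairing beyond the data. A block fit of those 6 libraries was chosen after seeing the data.

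Ratios of groups with 1 to 3 reads carry exact 95% intervals, and groups at 0 were set to a floor of 3 reads over the group. Both cover counting error only. A ratio to a floor takes the reads of the higher group as exact, so it is not a strict lower bound. P-values measure the spread between these libraries. Named are all 10 members, up to 3 genes per other list and direction (smallest p past the threshold, at least 1 CPM in the higher group), and the 3 genes most like Il1b, Il1rl1, Il33 and Il1r1 (log2 of CPM plus 0.5). The members and lists were chosen with earlier results of these data known.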

Additional observations from a re-analysis of the deposited data

How the results depend on the processing

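Of 69 calls on members, 21 were lost when 1 library was left out, 9 of them also under another setting, and 48 held under each alternative run for them. For 9 of these 48, the differences between non-myocytes and cardiomyocytes averaged over the 4 groups, no library was left out, and for 1, Il1rn between genotypes with JQ1 in the 20-week ventricle, the fit of the 2 groups alone gave no value. Alternatives were computed for all 165 member estimates: of the 75 with an unadjusted p of 0.05 or more, 27 changed sign in at least 1 alternative, and none of the rest did. Fitting only the 2 groups gave 1 call in place of 3 for JQ1 in wild type 20-week ventricle, 2 in place of 1 for genotype with vehicle in the 8-week ventricle, 0 in place of 1 for genotype with JQ1 there, 2 in place of 1 for genotype with vehicle in cardiomyocytes and 1 in place of 2 for genotype with JQ1 in cardiomyocytes. With the replicate number as a block, genotype with vehicle in cardiomyocytes gave 0 calls in place of 1; the same-numbered libraries there share only a number. The block changed no other count by over 1.5 times.

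Leaving out each library in turn gave these ranges of calls. For genotype with vehicle they were 3 to 6 in the 20-week ventricle (6 with all libraries) and 0 to 0 in cardiomyocytes (1 with all). For JQ1 in PLNR9C they were 3 to 4 in the 8-week ventricle (5 with all) and 0 to 1 in cardiomyocytes (0 with all). For JQ1 in wild type they were 1 to 3 in the 20-week ventricle (3 with all) and 3 to 5 in non-myocytes (5 with all). For genotype with JQ1 they were 3 to 5 in the 20-week ventricle (6 with all), 0 to 1 in the 8-week ventricle (1 with all) and 0 to 4 in cardiomyocytes (2 with all). The cause of these changes was not tested. Depth limited Il1r2, Il1a, Il18 and, in cardiomyocytes, Il1rn, Il1rl1 and Casp1, which had too few reads to test in some or all sample types.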

Other observations

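The non-myocyte tables and the ventricle tables differ in age and were normalized apart, so their levels are set side by side as a description. Il1b had 130.8 CPM on average in PLNR9C vehicle non-myocytes and 1.30 CPM in PLNR9C vehicle 20-week ventricle, 100.8 times the ventricle level, and 88.0 times the ventricle level in wild type vehicle libraries. The other 9 members were 3.14 to 19.0 times as high in PLNR9C vehicle non-myocytes as in the ventricle, and 1.49 to 8.46 times in wild type vehicle. The cause of the gap between Il1b and the other members was not tested.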
